A study of Mus musculus with 4 samples.

Results

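The apelin, endothelin and natriuretic peptide systems are sets of secreted peptides and cell-surface receptors that set the tone and permeability of blood vessels, and 9 of their genes were followed here across the vascular cells of the mouse lung. The 9 genes were the ligands *Apln* and *Edn1*, the processing enzyme *Ece1*, and the receptors *Aplnr*, *Ednra*, *Ednrb*, *Npr1*, *Npr3* and *Ackr3*. They were found by symbol among the 32285 genes of the count matrices, all 9 were present, and their unique molecular identifiers (UMIs, 1 per captured transcript) were summed per library within each endothelial subtype, pericytes and smooth muscle cells. The cells came from the left lung lobe of wild-type C57BL/6 male mice and were measured by droplet-based scRNA-Seq in 4 libraries, nonventilated and ventilated at each of the ages young and aged, each of which pooled the cells of 3 mice. Young mice were 2 to 3 months old and aged mice 22 months old. Food was held to 70% of free intake, a diet that the sample labels give without naming an age and the paper describes under its model of aging. If young mice were not restricted, diet and age cannot be told apart. Ventilated mice were anesthetized, given analgesia, fitted with arterial and venous lines and infused with Ringer's lactate fluid. They were ventilated for 3 hours at a tidal volume of 20 mL/kg (at most 0.6 mL), without end-expiratory pressure and at an inspired oxygen fraction of 1.0. Nonventilated mice were naive and had none of these procedures. Ventilation, anesthesia, analgesia, vascular lines, infused fluid and oxygen therefore cannot be told apart. With 1 pooled library per group neither can the group and the library. Cell suspensions were frozen and thawed before capture. With 1 library per group no test within an age or a ventilation state was possible, and none across them was run. The 95% intervals below are exact for counting error only (Poisson for a level, Clopper-Pearson for a share of cells, conditional binomial for a ratio). Those for levels and ratios take each UMI as independent and do not cover differences between cells. None of the intervals covers differences between mice.

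Apelin acts on the G protein-coupled receptor encoded by *Aplnr*, and in lung capillaries the peptide and its receptor are known to sit on different cells, the ligand on aerocytes (capillary type I cells, specialized for gas exchange) and the receptor on general capillary cells (capillary type II cells, which serve as progenitors). Endothelin 1, the product of *Edn1*, is cut to its active form by endothelin-converting enzyme 1 (*Ece1*), constricts vessels through the ETA receptor of mural cells (*Ednra*), and is bound by the ETB receptor (*Ednrb*), which in endothelium releases nitric oxide and clears the peptide. Natriuretic peptides from the heart raise cyclic GMP through the guanylyl cyclase receptor *Npr1*, while *Npr3*, the clearance receptor, has no cyclase domain and takes the peptides up. *Ackr3* encodes an atypical chemokine receptor that scavenges CXCL12 and adrenomedullin rather than signaling through G proteins.

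After filtering, 10160 of 15428 barcodes were kept, between 2171 and 2976 per library, where the median cell had 7871 to 9104 UMIs, and at most 7 barcodes were shared by any pair of libraries. Clusters were formed and named without these 9 genes or the other genes of their pathways, and the names given here were rebuilt from marker genes, so a difference from the study's own cell types may come from the naming. Summed over the 4 libraries, the 7 vascular classes held 3530 cells: 1968 general capillary-like, 611 aerocyte-like, 148 arterial-like, 227 venous-like, 124 lymphatic-like, 325 pericyte-like and 127 smooth muscle-like cells. The markers fixed for a class were higher in it than in the other 6 classes in all 4 libraries for 10 of 10 genes in general capillary-like, 10 of 12 in aerocyte-like, 7 of 11 in arterial-like, 9 of 11 in venous-like, 8 of 8 in lymphatic-like, 10 of 10 in pericyte-like and 10 of 11 in smooth muscle-like cells. The smallest group was the aged ventilated arterial-like class with 19 cells. Lymphoid cells, which should lack these transcripts, served as the measure of free RNA: at most 2.94% of them held a UMI of any of the genes other than *Ece1*, and their levels there were at most 9.11 CPM (UMIs of the gene per 1000000 UMIs of the class), at a median of 6323 to 9673 UMIs per lymphoid cell. For *Ece1* 10.7% to 22.1% of lymphoid cells held a UMI, at 25.6 to 47.1 CPM. Whether this was free RNA or expression in lymphoid cells was not tested. In what follows, values for the 4 libraries are given for young mice first, without and then with ventilation, and for aged mice second, in the same order.

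The ligands were each concentrated in an endothelial class. *Apln* (chrX:48025146-48034853 on the minus strand, GRCm38) was an aerocyte transcript, and 71.6% of its 1117 UMIs over all cells lay in aerocyte-like cells. There it measured 306, 159, 270 and 127 CPM, and the lowest of these was above the highest level in any of the other 6 vascular classes, 46.6 CPM in young ventilated lymphatic-like cells, where all 14 UMIs came from a single cell. No *Apln* UMI was seen in pericyte-like or smooth muscle-like cells, which for the 102 young ventilated pericyte-like cells limits the share of cells with a UMI at this depth to 2.94% and not the share that expressed the gene. A further 15.0% of the *Apln* UMIs lay in an endothelial cluster of many UMIs per cell that mixed aerocyte and other capillary markers and was left out of the classes.

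*Edn1* (chr13:42301476-42307990, plus strand) was highest in arterial-like cells at 367, 364, 360 and 439 CPM, above the other 6 vascular classes in all 4 libraries. General capillary-like cells (148, 132, 172 and 114 CPM) and venous-like cells (101, 185, 173 and 100 CPM) followed, with ranges that overlapped. Most of the 3733 UMIs, 62.7%, still lay in the numerous general capillary-like cells. Aerocyte-like cells held between 0 and 6 UMIs per library, while general capillary-like cells held 8 to 23 UMIs of *Apln*.

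*Ece1* (chr4:137862237-137965229, plus strand), the converting enzyme, was spread over all endothelial classes. Arterial-like cells had 761, 696, 739 and 784 CPM, venous-like cells 798, 481, 599 and 561 CPM, and lymphatic-like cells 595, 620, 455 and 602 CPM, 3 ranges that overlapped each other. Levels in pericyte-like cells (32.3, 31.5, 17.6 and 27.2 CPM, with 6.25% to 15.7% of cells holding a UMI) were within or below the range in lymphoid cells. Whether they were free RNA or low expression was not tested.

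*Aplnr* (chr2:85136225-85139923, plus strand) had 80.7% of its 1059 UMIs in general capillary-like cells and none or 1 per library in aerocyte-like cells, the reverse of its ligand. Of the 537 young nonventilated general capillary-like cells, 234 held an *Aplnr* UMI, 18 an *Apln* UMI and 11 both. *Ednra* (chr8:77663031-77724464, minus strand) was a mural and fibroblast transcript: 767, 1081, 555 and 837 CPM in pericyte-like cells, above the other 6 vascular classes in all 4 libraries, and 105, 204, 90.8 and 212 CPM in smooth muscle-like cells. Outside the 7 classes it measured 527, 1064, 431 and 790 CPM in one unnamed mural cluster, 402, 480, 332 and 312 CPM in another and 339, 226, 290 and 276 CPM in alveolar fibroblast-like cells. Because alveolar fibroblast-like cells were many, they held 69.5% of the 8577 UMIs of *Ednra*. In the 5 endothelial classes its level was at most 3.39 CPM, apart from 8 UMIs in 2 young ventilated lymphatic-like cells.

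*Ednrb* (chr14:103814625-103844402, minus strand), the partner receptor, was highest in aerocyte-like cells at 1237, 433, 965 and 516 CPM, again above the other 6 classes in all 4 libraries. Smooth muscle-like cells (141, 44.3, 172 and 43.8 CPM) and lymphatic-like cells (98.1, 173, 175 and 107 CPM) came next with overlapping ranges, and pericyte-like cells held at most 2 UMIs per library. Of the 79 young nonventilated pericyte-like cells 63 held an *Ednra* UMI and 0 an *Ednrb* UMI, whereas smooth muscle-like cells held both receptors, with UMIs of *Ednra* in 61.4% and of *Ednrb* in 47.7% of the 44 young nonventilated cells. UMIs of the apelin ligand and of the ETB receptor met in aerocytes, and 121 of 202 young nonventilated aerocyte-like cells held a UMI of each.

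*Npr1* (chr3:90450591-90465866, minus strand) was a pan-endothelial receptor, with mean levels over the libraries of 93.5 CPM in arterial-like, 93.1 CPM in general capillary-like, 91.0 CPM in lymphatic-like and 85.3 CPM in venous-like cells and ranges that overlapped. Smooth muscle-like cells had 41.3, 39.4, 30.9 and 33.7 CPM. *Npr3* (chr15:11839896-11907287, minus strand) was found in general capillary-like (362, 21.6, 356 and 106 CPM), arterial-like (156, 25.0, 252 and 275 CPM) and venous-like cells (115, 18.8, 144 and 64.6 CPM) and also in pericyte-like cells (114, 97.8, 161 and 95.1 CPM), but in aerocyte-like cells it stayed at or below 23.9 CPM. *Ackr3* (chr1:90203980-90216751, plus strand) was highest in venous-like cells at 495, 450, 181 and 273 CPM, above the other 6 classes in all 4 libraries, followed by general capillary-like (104, 149, 63.1 and 107 CPM) and lymphatic-like cells (44.3, 207, 19.8 and 120 CPM). No *Ackr3* UMI was seen in smooth muscle-like cells. The class with the highest mean was the same for the other genes under most settings tried, but for *Npr1*, whose 4 leading means were close, it changed with the setting.

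**Figure D1:**
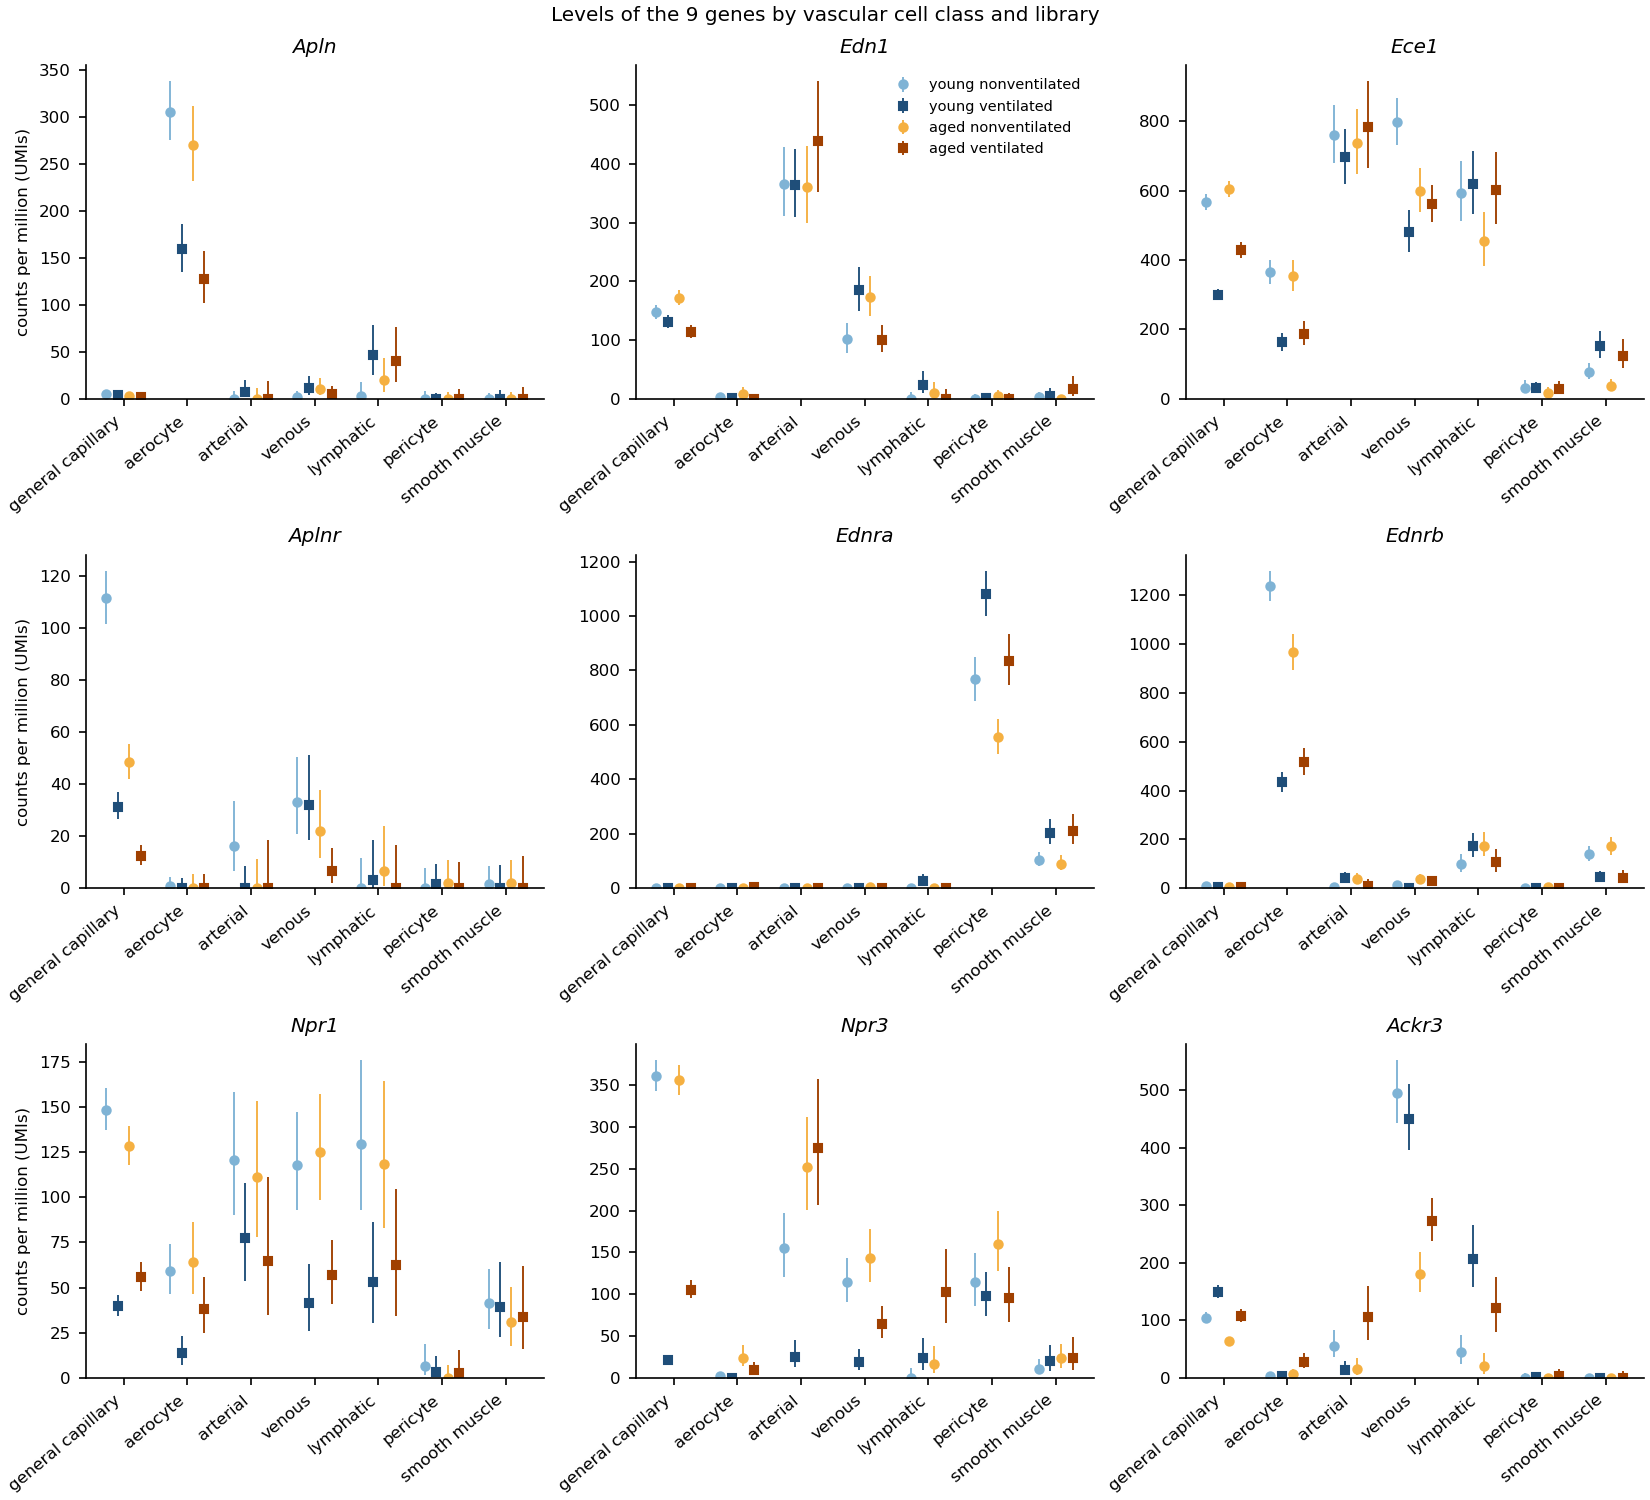
Level of each of the 9 genes (CPM, linear axes from 0) in the 7 vascular classes, with a point per library and bars for the 95% Poisson counting interval. *Apln* and *Ednrb* stand out in aerocytes, *Edn1* in arterial cells, *Ednra* in pericytes and *Ackr3* in venous cells, and the squares (ventilated) lie below the circles (nonventilated) for *Npr1* in all 5 endothelial classes.

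The first comparison set ventilated against nonventilated mice at each age. A gene in a class was called changed when its ratio reached 2-fold with a counting interval that left out 1, among genes with at least 20 UMIs in 1 of the 2 libraries. In young mice 33 of the 63 pairs of gene and class had enough UMIs, and 1 was higher and 12 were lower after ventilation, while 24.5% of all genes tested in the same classes were called (8.55% higher and 15.9% lower). In aged mice 32 pairs had enough UMIs, and 5 were higher and 7 lower, against 17.4% of all genes (6.23% higher and 11.2% lower). The calls centered on the receptors *Npr3*, *Npr1*, *Aplnr*, *Ednrb* and *Ackr3*. The general capillary-like and aerocyte-like ratios sit on a shifted scale: there the median log2 ratio of all genes tested was -0.30 and -0.35 in young and -0.17 and -0.13 in aged mice, and scaling by the median of ratios instead raised all young ratios by 0.28 and 0.25 and all aged ratios by 0.15 and 0.11 on the log2 scale. Under that scaling no called pair changed direction, and 2 calls, *Ece1* in young and *Apln* in aged aerocyte-like cells, no longer reached 2-fold.

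*Npr3*, the clearance receptor, showed the widest gap between ventilated and nonventilated general capillary-like cells. At 362 and 21.6 CPM in the young libraries it was 16.7-fold lower after ventilation (95% counting interval, 13.7 to 20.7). At 356 and 106 CPM in the aged libraries it was 3.37-fold lower (3.01 to 3.796). The share of general capillary-like cells with an *Npr3* UMI was 70.2%, 9.46%, 75.8% and 34.1%, and after each cell was thinned to 2000 UMIs, with 8 to 40 shallower cells left out per library, it was 43.5%, 4.71%, 42.3% and 15.8%. Both nonventilated libraries were alike and high, the young ventilated library was lowest and the aged ventilated library lay between, before and after thinning. Within the largest general capillary cluster alone (1477 cells) the levels were 364, 24.7, 353 and 112 CPM, a 14.7-fold and a 3.14-fold difference. A cluster of 98 cells inside this class, led by immediate early and growth factor genes such as *Fosl1* and *Hbegf*, drew 42 cells from the young and 46 from the aged ventilated library and held *Npr3* at 5.49 and 35.8 CPM.

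Outside the capillaries, *Npr3* was called lower after ventilation in veins at both ages and in arteries in young mice. Venous-like cells measured 115 and 18.8 CPM in young mice, 6.09-fold lower after ventilation (3.14 to 13.2), and 144 and 64.6 CPM in aged mice, 2.23-fold lower (1.55 to 3.23). In arterial-like cells the young level went from 156 to 25.0 CPM, 6.21-fold lower (3.26 to 13.04), and the aged libraries read 252 and 275 CPM, a ratio of 1.09 (0.761 to 1.55). Only the young ventilated library was low in arteries. Pericyte-like cells measured 114 and 97.8 CPM in young mice, a ratio of 0.856 (0.581 to 1.26), and 161 and 95.1 CPM in aged mice, a ratio of 0.592 (0.386 to 0.889), neither of which was called. The 23 *Npr3* UMIs of aged ventilated lymphatic-like cells all came from 1 cell, so the 6.22-fold higher value called there rests on it, and without the cell with most UMIs in each library the direction turned.

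*Npr1*, the signaling receptor for the same peptides, was called lower after ventilation in 4 of the 5 endothelial classes in young and in 2 of them in aged mice. General capillary-like cells measured 149, 39.6, 128 and 55.9 CPM, which was 3.76-fold lower in young (3.18 to 4.45) and 2.30-fold lower in aged mice (1.94 to 2.72). Venous-like cells measured 118, 41.5, 125 and 56.7 CPM, 2.84-fold lower in young (1.75 to 4.79) and 2.21-fold lower in aged mice (1.50 to 3.29). In both classes each ventilated library lay below both nonventilated libraries. Aerocyte-like cells (59.1, 13.4, 64.2 and 38.1 CPM) were 4.40-fold lower in young mice (2.42 to 8.65), and the aged ratio of 0.594 (0.350 to 0.989) was not called. Lymphatic-like cells (130, 53.3, 119 and 62.5 CPM) were 2.43-fold lower in young mice (1.34 to 4.65), with an aged ratio of 0.526 (0.262 to 1.00). In arterial-like cells (121, 77.4, 111 and 64.9 CPM) the ratios of 0.641 (0.403 to 1.01) and 0.584 (0.285 to 1.12) were not called, and in smooth muscle-like cells, at 27, 16, 16 and 10 UMIs, the ratios were 0.954 (0.480 to 1.84) in young and 1.09 in aged mice.

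**Figure D2:**
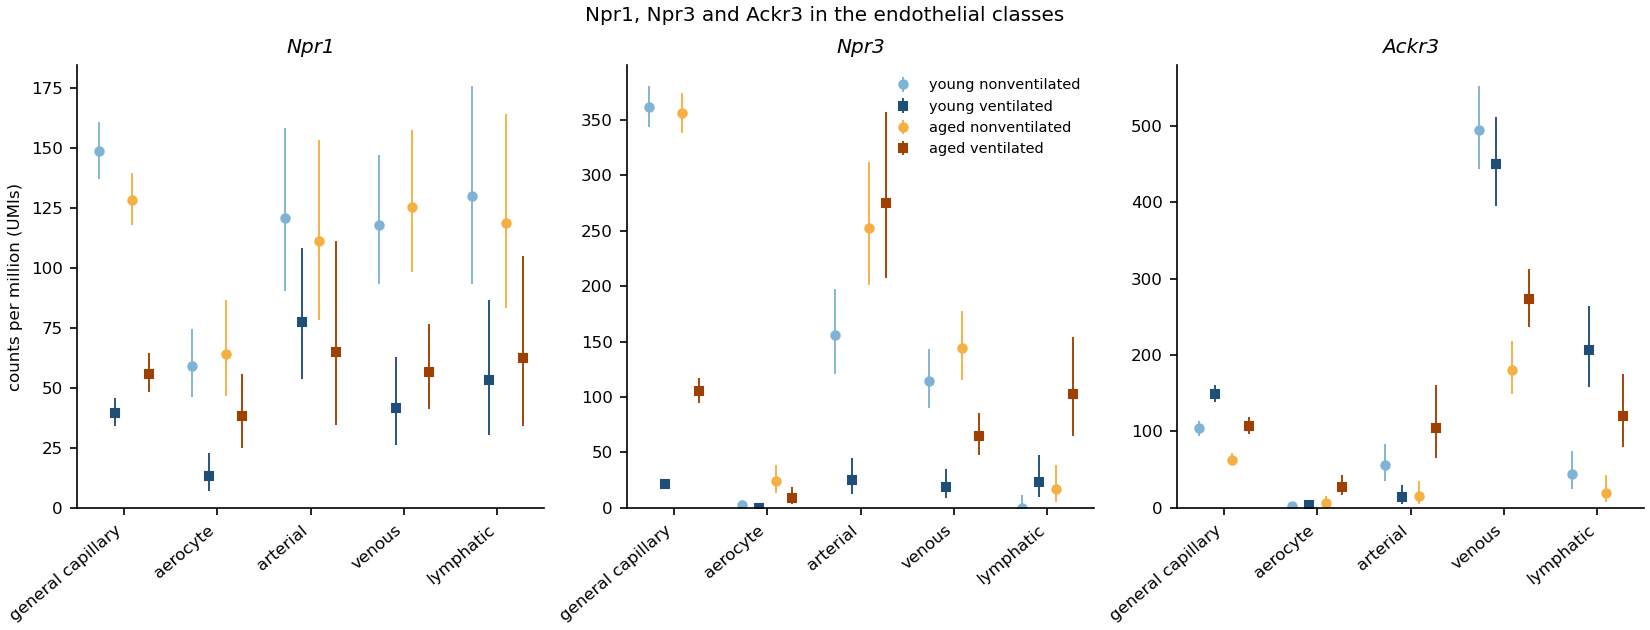
*Npr1*, *Npr3* and *Ackr3* in the 5 endothelial classes (CPM, linear axes from 0), a point per library with 95% Poisson counting intervals. *Npr3* is lowest in the young ventilated library in general capillary, arterial and venous cells, while in arterial cells the aged ventilated library, at 275 CPM, is level with the aged nonventilated library at 252 CPM.

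The promoters of the natriuretic peptide receptors and of *Ackr3* are shown because both natriuretic receptors were lower after ventilation in general capillary-like and venous-like cells, while *Ackr3* had ratios above 1 in general capillary-like and lymphatic-like cells. Each sequence is the 250 bases before the start site in RefSeq (GRCm38.p6), read 5′ to 3′ on the strand of the gene. Capitals mark matches, on either strand, to a GC box (GGGCGG), a KLF-type element (CACCC), an AP-1 site (TGANTCA), a CRE core (TGACG), a hypoxia response core (ACGTG) or a TATA box (TATAAA). The windows are chr3:90465867-90466116 for *Npr1*, chr15:11907372-11907621 for *Npr3* and chr1:90203730-90203979 for *Ackr3*.
Npr1: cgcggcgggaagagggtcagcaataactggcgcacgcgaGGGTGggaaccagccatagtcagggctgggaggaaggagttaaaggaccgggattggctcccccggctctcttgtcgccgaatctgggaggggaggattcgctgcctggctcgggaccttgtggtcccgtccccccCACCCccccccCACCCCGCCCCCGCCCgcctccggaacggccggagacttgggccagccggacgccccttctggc
Npr3: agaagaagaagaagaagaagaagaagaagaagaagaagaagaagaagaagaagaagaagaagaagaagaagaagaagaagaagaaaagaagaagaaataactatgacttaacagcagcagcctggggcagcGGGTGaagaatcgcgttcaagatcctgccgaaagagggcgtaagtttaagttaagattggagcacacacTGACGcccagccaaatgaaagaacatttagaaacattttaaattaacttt
Ackr3: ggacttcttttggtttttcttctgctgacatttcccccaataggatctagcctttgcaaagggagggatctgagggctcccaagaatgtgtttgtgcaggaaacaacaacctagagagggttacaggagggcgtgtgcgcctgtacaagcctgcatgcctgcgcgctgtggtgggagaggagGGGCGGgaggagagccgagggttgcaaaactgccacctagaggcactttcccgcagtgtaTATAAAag
The windows differ in make-up, with 70.4% G and C in *Npr1*, 38.8% in *Npr3* and 54.0% in *Ackr3* against a median of 52.4% over 32851 promoters. *Npr1* holds 2 GC boxes and 3 CACCC matches, which overlap in part. *Npr3* opens with a run of GAA repeats and holds 1 CACCC and 1 TGACG match. *Ackr3* holds 1 GC box and 1 TATA box close to its start. For *Npr3* the RefSeq start used here lies 84 bases from the gene start in GENCODE. Of all promoters in windows of the same length, 32.7% hold GGGCGG, 52% CACCC, 6.75% TGANTCA, 17.8% TGACG, 16.6% ACGTG and 12.4% TATAAA. These matches describe the letters only. Promoters of 8 of the 9 genes were in the table, and that of *Aplnr* was not used here.

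*Aplnr*, the apelin receptor, was called lower in general capillary-like cells both after ventilation and in aged mice. The 4 libraries read 111, 31.4, 48.4 and 12.3 CPM, each apart from the others. The level after ventilation was 3.55-fold lower in young (2.94 to 4.31) and 3.94-fold lower in aged mice (2.81 to 5.63), and the ratio of these ratios was 0.902 (0.616 to 1.32). The share of cells with a UMI was 43.6%, 15.0%, 27.3% and 8.17%. In the largest general capillary cluster alone the levels were 115, 34.9, 51.6 and 14.0 CPM. Venous-like cells held 22, 17, 13 and 5 UMIs (33.2, 32.0, 22.0 and 6.60 CPM), and the young ratio there was 0.964 (0.481 to 1.90).

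**Figure D3:**
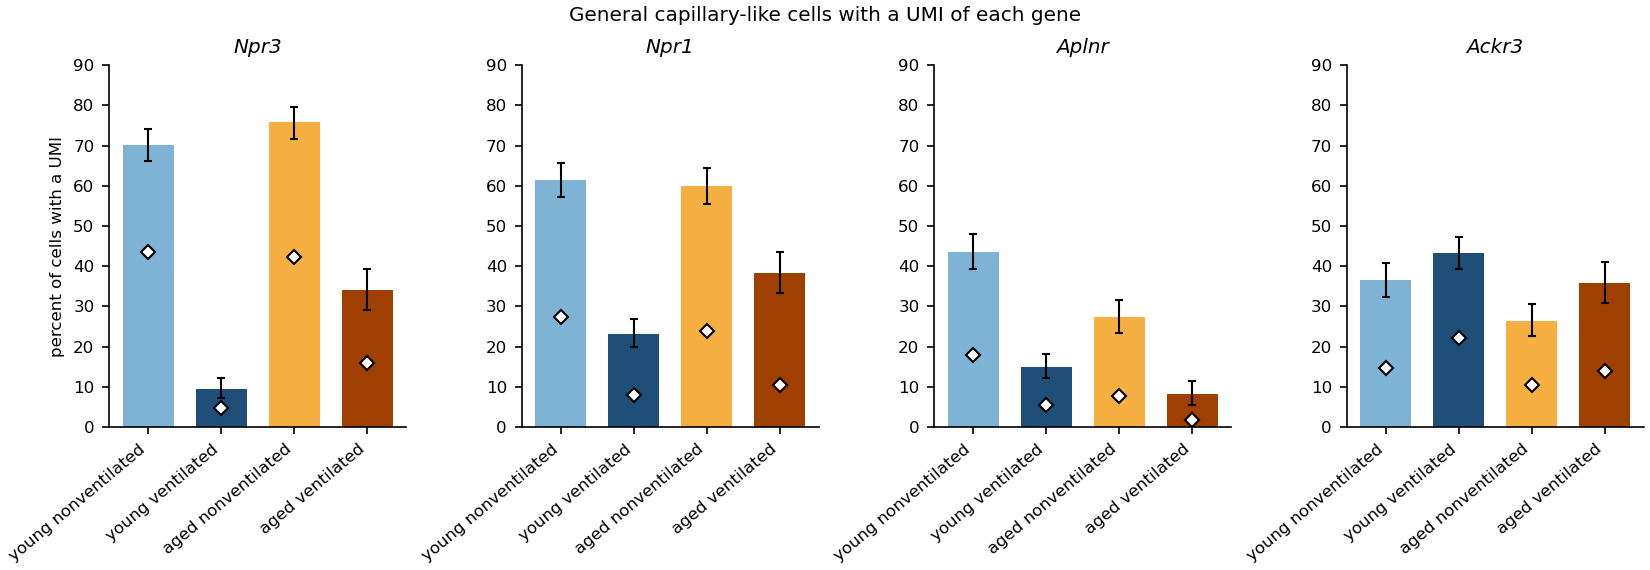
Percent of general capillary-like cells with at least 1 UMI of *Npr3*, *Npr1*, *Aplnr* and *Ackr3* in each library (bars from 0, with 95% Clopper-Pearson intervals), and the percent after each cell was thinned to 2000 UMIs (diamonds). *Npr3* runs from 9.46% in the young ventilated to 75.8% in the aged nonventilated library, and *Aplnr* is lowest, at 8.17%, in the aged ventilated library.

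Its ligand had lower values after ventilation as well. *Apln* in aerocyte-like cells was 1.92-fold lower after ventilation in young (1.59 to 2.33) and 2.12-fold lower in aged mice (1.63 to 2.77), of which only the aged value passed the 2-fold limit. Cells with an *Apln* UMI made up 63.4%, 31.0%, 55.8% and 40.6% of aerocyte-like cells, and both ventilated libraries lay below both nonventilated ones. *Ednrb* in the same cells measured 1237 and 433 CPM in young mice, 2.85-fold lower (2.56 to 3.19), and 965 and 516 CPM in aged mice, 1.87-fold lower (1.64 to 2.14). Ventilated aerocyte-like cells of young mice were also shallower, at 3873 UMIs in the median cell, where the young nonventilated, aged nonventilated and aged ventilated libraries had 6398, 5810 and 7200, and the part of this in the ratios was not tested. Without the aerocyte cluster of few UMIs per cell, the young ratios of *Apln* and *Ednrb* were 0.472 (0.380 to 0.583) and 0.318 (0.281 to 0.359).

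In smooth muscle the endothelin receptors differed in direction, with *Ednrb* called lower after ventilation at both ages and *Ednra* called higher in aged mice. *Ednrb* there was 3.17-fold lower after ventilation in young (1.90 to 5.59) and 3.93-fold lower in aged mice (2.18 to 7.66), at 92, 18, 89 and 13 UMIs. *Ednra* read 105 and 204 CPM in young mice, a ratio of 1.94 (1.39 to 2.71), and 90.8 and 212 CPM in aged mice, 2.34-fold higher (1.58 to 3.49). The young value rests on 1 cell, which gave 48 of the 83 UMIs: without the cell with most UMIs in each library, the young levels were 95.6 and 89.6 CPM and the aged levels 81.9 and 176 CPM. With the same cells left out, *Ednrb* read 119, 25.3, 129 and 28.8 CPM. These are few cells, 44, 29, 34 and 20 per library, and endothelial lineage genes summed to 32.1, 32.0, 38.6 and 135 CPM in them, whose part in the result was not tested. Among smooth muscle-like cells with fewer than 2 UMIs of those endothelial genes, *Ednrb* was at 149, 42.6, 172 and 47.5 CPM and *Ednra* at 97.4, 216, 95.01 and 230 CPM. At least 2 UMIs of fibroblast lineage genes were held by 41, 27, 29 and 15 smooth muscle-like cells, whose part was not tested. Leaving out cells with UMIs of any other lineage kept 3, 2, 5 and 5 cells, and the direction of *Ednrb* turned at both ages. Myofibroblast-like cells, also few and described at the end, had lower *Ednrb* after ventilation as well. In pericyte-like cells, where counts were larger, *Ednra* was 1.41 times as high after ventilation in young (1.24 to 1.61) and 1.51 times in aged mice (1.28 to 1.78), both below the 2-fold limit, while the share of cells with a UMI was 79.7%, 75.5%, 72.5% and 64.1%.

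The ligand and the enzyme of the endothelin pathway had few calls. *Edn1* in arterial-like cells had ratios of 0.993 (0.792 to 1.24) in young and 1.22 (0.916 to 1.62) in aged mice. In general capillary-like cells it had ratios of 0.889 (0.794 to 0.996) and 0.662 (0.584 to 0.750). In venous-like cells the direction differed with age, with a ratio of 1.83 (1.32 to 2.53) in young and 0.581 (0.426 to 0.789) in aged mice, and the difference was not tested. The share of venous-like cells with an *Edn1* UMI, at 35.1%, 31.9%, 45.0% and 20.6%, was not higher after ventilation at either age. None of these ratios reached 2-fold under the main settings, but some alternative settings did call *Edn1* after ventilation. In aged arterial-like cells it was higher with the UMI limit over the barcodes left by the other filters, with a mitochondrial limit of 5% and without integration. In young venous-like cells it was higher at the 5% limit and with cells of another lineage left out. In aged venous-like cells it was lower without integration. *Ece1* was lower after ventilation in both capillary types: 567, 300, 605 and 429 CPM in general capillary-like cells, with ratios of 0.529 (0.495 to 0.566) and 0.710 (0.665 to 0.757), and 365, 162, 354 and 188 CPM in aerocyte-like cells, 2.25-fold lower in young (1.87 to 2.71) and with a ratio of 0.530 (0.424 to 0.660) in aged mice. Venous-like cells had *Ece1* ratios of 0.603 (0.517 to 0.701) in young and 0.936 (0.811 to 1.08) in aged mice. Arterial-like cells had *Ece1* ratios of 0.914 (0.780 to 1.07) and 1.06 (0.863 to 1.30), and lymphatic-like cells of 1.04 (0.846 to 1.28) and 1.32 (1.04 to 1.69). Smooth muscle-like cells ran the other way at 77.9, 153, 36.7 and 125 CPM, a ratio of 1.96 (1.33 to 2.89) in young and 3.39-fold higher in aged mice (1.90 to 6.25), at 51, 62, 19 and 37 UMIs. The aged nonventilated level lay within the range measured in lymphoid cells, 25.6 to 47.1 CPM. The size of the aged ratio therefore rests on a level no higher than in lymphoid cells.

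*Ackr3*, the scavenging receptor, was called higher after ventilation in lymphatics at both ages. In lymphatic-like cells it measured 44.3 and 207 CPM in young mice, 4.66-fold higher (2.58 to 9.02), and 19.8 and 120 CPM in aged mice, 6.09-fold higher (2.46 to 18.04). Both ventilated libraries lay above both nonventilated libraries, and the share of cells with a UMI was 24.2%, 51.5%, 11.4% and 43.5%. The counts were 14, 62, 6 and 27 UMIs, of which 6, 17, 3 and 6 came from the cell with most. After thinning to 2000 UMIs per cell neither call was reached. These cells held *Ptprc*, which encodes the leukocyte antigen CD45, at 193, 63.3, 284 and 129 CPM, whose part in the result was not tested, and among those with fewer than 2 UMIs of the immune lineage genes *Ackr3* read 30.2, 216, 27.5 and 142 CPM. General capillary-like cells had ratios of 1.44 (1.27 to 1.62) and 1.70 (1.45 to 2.00), below 2-fold. Venous-like cells, where the gene was highest, had ratios of 0.909 (0.766 to 1.08) in young and 1.51 (1.19 to 1.92) in aged mice. Arterial-like cells held 24, 6, 5 and 21 UMIs, and were called lower in young and higher in aged mice, but 10 of the 21 aged ventilated UMIs came from 1 cell, and without the top cells neither call held.

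**Figure D4:**
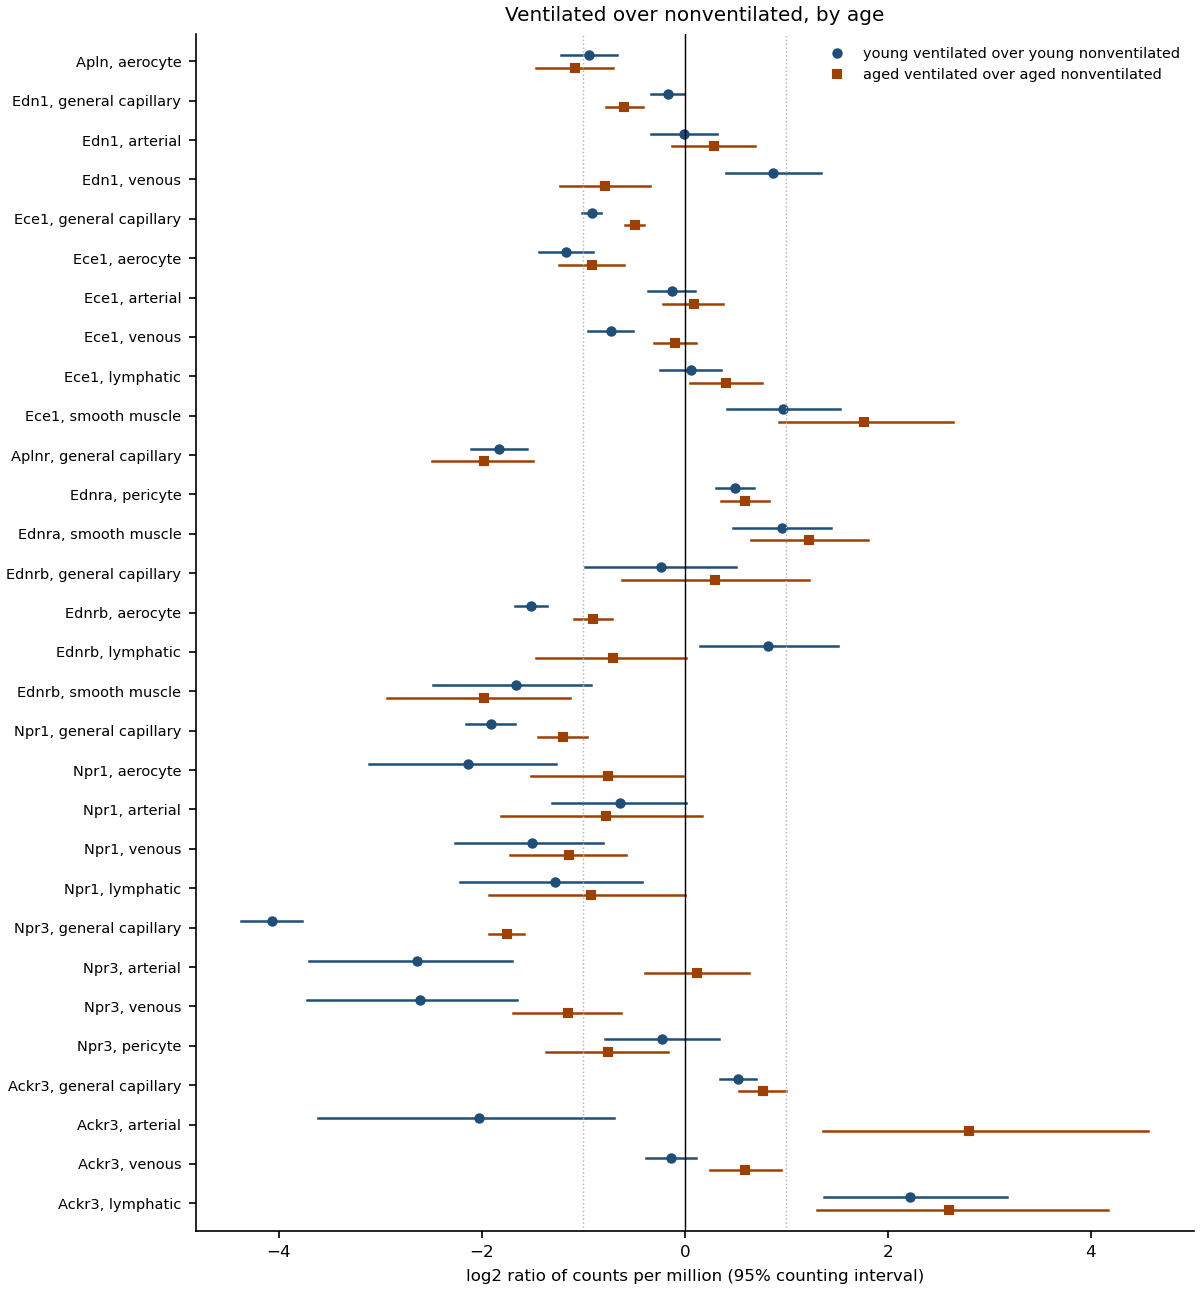
Log2 ratio of CPM, ventilated over nonventilated, for the 30 pairs of gene and class with enough UMIs at both ages (circles young, squares aged), with 95% counting intervals and dotted lines at 2-fold. Most points lie left of 0, *Npr3* in general capillary cells lies farthest left in young mice, and *Ackr3* in lymphatic cells lies right of 0 at both ages.

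The second comparison set aged against young mice. Between the nonventilated libraries 33 pairs had enough UMIs, and 1 was higher and 4 were lower in aged mice, against 5.48% of all genes called (2.96% higher and 2.52% lower). *Aplnr* in general capillary-like cells was 2.30-fold lower with age (1.95 to 2.73) at 111 and 48.4 CPM. *Ackr3* in venous-like cells was 2.74-fold lower (2.19 to 3.44) at 495 and 181 CPM, with UMIs in 86.0% and 53.3% of the cells. Both kept their call under all 16 alternatives tried. Some of these could not lose it, namely the lower fold, the absent count filter and changes confined to another class. The other 3 calls rest on few UMIs: *Ackr3* in arterial-like cells, with 24 and 5 UMIs, *Ece1* in smooth muscle-like cells, with 51 and 19 UMIs, the latter at the level of lymphoid cells, and *Ednrb* in venous-like cells, with 8 UMIs in 57 young cells and 22 UMIs, 9 of them from 1 cell, in 60 aged cells. *Npr3* in general capillary-like cells read 362 and 356 CPM, with a ratio of 0.985 (0.917 to 1.06), and *Edn1* in arterial-like cells had a ratio of 0.982 (0.768 to 1.25). This *Edn1* pair was called lower in aged mice with the UMI limit over the barcodes left by the other filters and without integration. *Ednrb* in lymphatic-like cells read 98.1 and 175 CPM, but 68.9 and 73.2 CPM in cells with fewer than 2 UMIs of the immune lineage genes.

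Between the ventilated libraries 30 pairs had enough UMIs, and 7 were higher and 1 was lower in aged mice, against 9.51% of all genes (4.34% higher and 5.17% lower). These ratios share the ventilated libraries with those above and are not separate evidence. *Npr3* was higher in aged mice in general capillary-like cells (21.6 and 106 CPM, 4.88-fold, 3.90 to 6.16), in arterial-like cells (25.0 and 275 CPM, 10.97-fold, 5.68 to 23.3) and in venous-like cells (18.8 and 64.6 CPM, 3.43-fold, 1.72 to 7.59). *Npr1* in aerocyte-like cells was 2.83-fold higher (1.40 to 6.00) at 13 and 26 UMIs. *Aplnr* in general capillary-like cells was 2.55-fold lower (1.80 to 3.69) at 31.4 and 12.3 CPM, so that in this class it was lower with age with or without ventilation. Calls in arterial-like *Ackr3*, lymphatic-like *Npr3* and venous-like *Ednrb* (1 and 24 UMIs, 12 of the latter from 1 cell) did not hold once the cell with most UMIs was left out of each library.

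**Figure D5:**
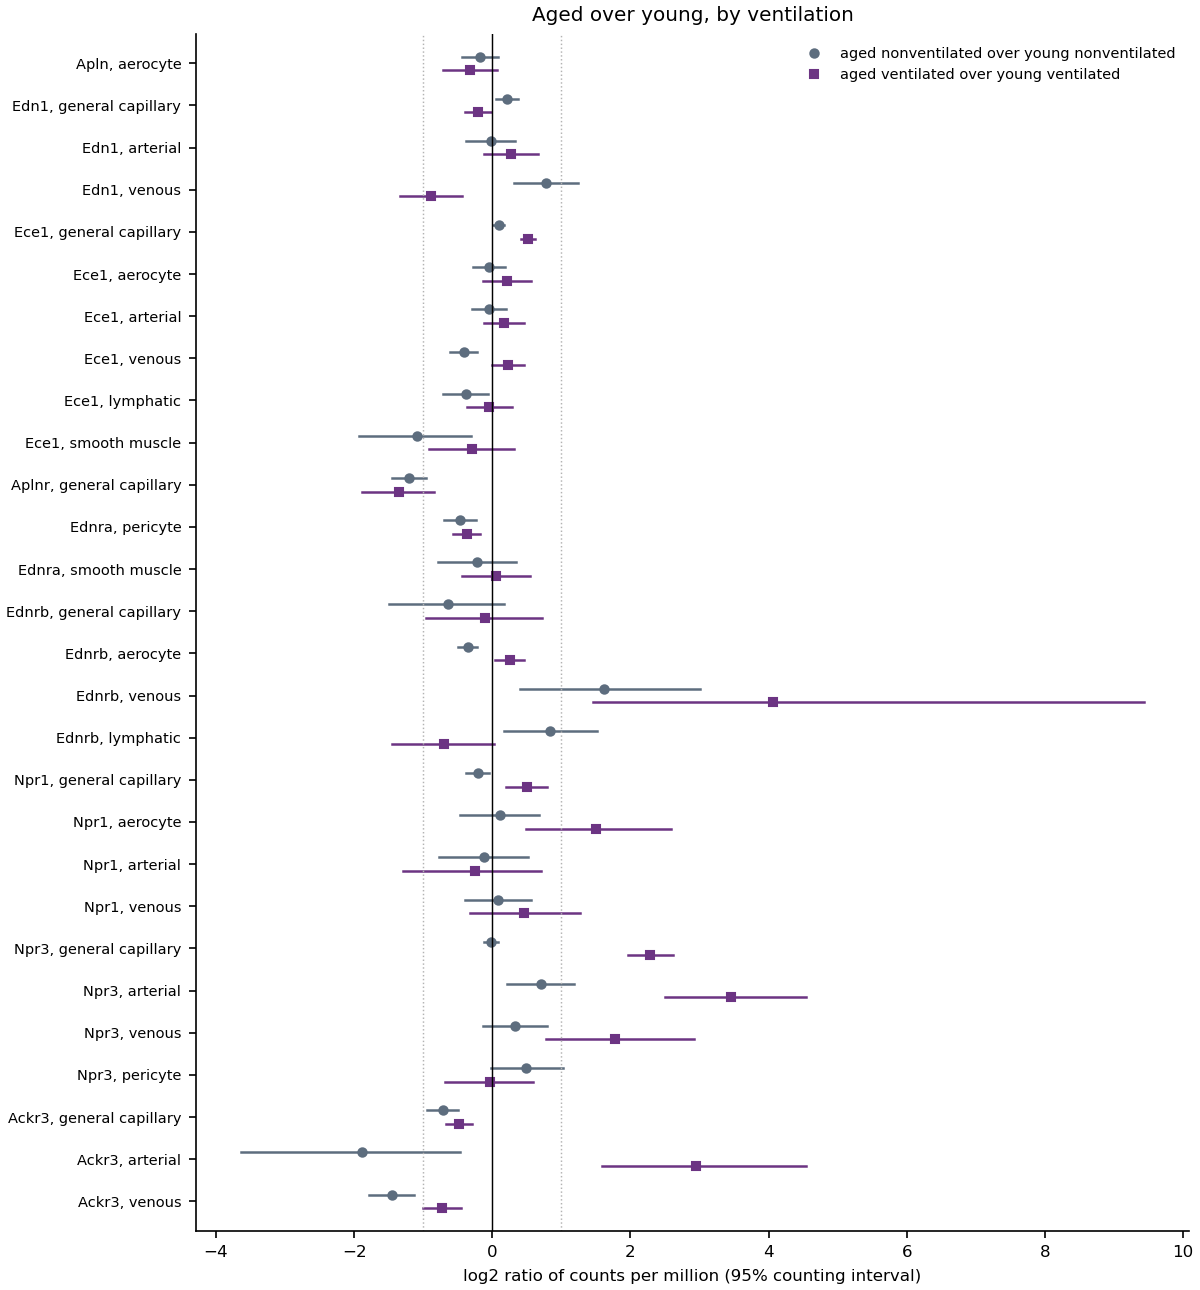
Log2 ratio of CPM, aged over young, for the 28 pairs with enough UMIs in both comparisons (circles nonventilated, squares ventilated), with 95% counting intervals and dotted lines at 2-fold. *Npr3* in general capillary cells sits at 0 without ventilation and at a 4.88-fold ratio with it, while *Aplnr* lies left of -1 in both.

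The aged response was set against the young one as a ratio of ratios, aged over young, for 33 pairs with at least 4 UMIs in every library and 20 in 1 of them. Its counting interval left out 1 in 13 pairs, and in 24.9% of all genes treated in the same way. *Npr3* had values of 4.96 (3.93 to 6.25) in general capillary-like, 6.77 (3.29 to 13.9) in arterial-like and 2.74 (1.30 to 5.78) in venous-like cells. *Npr1* had values of 1.64 (1.30 to 2.06) in general capillary-like and 2.61 (1.22 to 5.61) in aerocyte-like cells, *Ece1* of 1.34 (1.22 to 1.47) and *Ednrb* of 1.52 (1.29 to 1.81) in general capillary-like and aerocyte-like cells, respectively. For the pairs named so far the level after ventilation stood nearer to the nonventilated level in aged than in young mice. All genes tested were shifted the same way in general capillary-like and aerocyte-like cells. Their median log2 ratios were -0.30 and -0.35 in young and -0.17 and -0.13 in aged mice, and the part of this shift in these values was not tested. The other 6 intervals that left out 1 were those of *Edn1* in general capillary-like cells (0.745, 0.631 to 0.880) and venous-like cells (0.318, 0.207 to 0.489), *Ece1* (1.55, 1.26 to 1.91) and *Ackr3* (1.66, 1.25 to 2.21) in venous-like cells, *Ackr3* in arterial-like cells (28.5, 7.59 to 107.1), where counts were at most 24 UMIs, and *Ednrb* in lymphatic-like cells (0.347, 0.1801 to 0.669). Among lymphatic-like cells with fewer than 2 UMIs of the immune lineage genes, *Ednrb* read 68.9, 201, 73.2 and 92.7 CPM. The aged ventilated level was then no longer below the aged nonventilated one. *Apln* in aerocyte-like cells had a value of 0.907 (0.661 to 1.25), and *Ednra* in pericyte-like cells of 1.07 (0.871 to 1.32).

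The other genes of these pathways were taken as a list of 36, among them further ligands and proteases, cyclic GMP enzymes, G protein and arrestin genes and the adrenomedullin and CXCL12 systems, whose peptides ACKR3 also binds. Of 93 tested pairs in young mice 6 were higher and 39 lower after ventilation, against 8.55% and 15.9% of all genes, and of 93 in aged mice 5 were higher and 30 lower, against 6.23% and 11.2%. In general capillary-like cells the median log2 ratio of the list was -1.04 in young and -0.91 in aged mice, against -0.30 and -0.17 for all genes tested. *Calcrl*, the adrenomedullin receptor, read 2667, 977, 2778 and 1256 CPM there, 2.73-fold lower in young and 2.21-fold lower in aged mice. Its partner *Ramp2* read 1134 and 301 CPM in young mice, 3.77-fold lower. *Cxcl12*, the chemokine that ACKR3 scavenges, was 3.25-fold lower in young and 2.47-fold lower in aged general capillary-like cells, where *Ackr3* itself had ratios of 1.44 and 1.70. *Arrb1*, which encodes a beta-arrestin, was 4.55-fold and 2.43-fold lower. *Furin*, a protease that cuts peptide precursors including that of endothelin 1, was the gene called higher in this class at both ages, at 73.2 and 192 CPM in young and 92.7 and 206 CPM in aged mice, 2.63-fold and 2.23-fold. *Nppc*, which encodes C-type natriuretic peptide, was called higher in lymphatic-like cells at 4, 53, 12 and 26 UMIs, 13.9-fold in young and 2.93-fold in aged mice. In smooth muscle-like cells *Gucy1a1*, a subunit of the nitric oxide receptor, was 3.16-fold lower in young and 2.14-fold lower in aged mice. Between ages the list had 7 higher and 1 lower of 96 pairs without ventilation, or 8.33% called against 5.48% of all genes, and 10 higher and 2 lower of 84 with it, or 14.3% against 9.51%.

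The genes most like each member were found by Pearson correlation of log2(CPM + 10) over 28 points, 7 classes in 4 libraries, among 7234 genes that reached 50 CPM in 1 of them. The points share libraries and depth, and the values are descriptions. *Ednra* was followed by *Tubb4a* (r = 0.989), *Adcy2* and *Dzip1l*, *Ece1* by *Erg* (0.955), an endothelial transcription factor, *Dock9* and *Cpne8*, and *Edn1* by *Abcb1a* (0.944), *Jam2* and *Mrtfb*. *Apln* was followed by *Abcc3* (0.918), *Chst1* and *Ccdc184*, *Aplnr* by *Glp1r* (0.851), *H2-DMa* and *Car14*, and *Ackr3* by *Grrp1* (0.916), *Gpr182* and *Dll1*. *Gpr182* encodes another atypical receptor of endothelium. *Chst1* and *Glp1r* were among the markers that named the aerocyte and general capillary classes. *Npr1* was followed by *S100a16* (0.954), *Syne1* and *Ece1*, the last of which is itself one of the 9 genes, *Npr3* by *Slc12a7* (0.846), *Cadm1* and *Epb41*, and *Ednrb* by *Olfml2a* (0.864) and *Rasa4*.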

How the data were processed

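Libraries of 4 groups, each a pool of 3 mice, were analysed from the deposited count matrices. The authors aligned reads to mm10 with Cell Ranger 7.0.0 and deposited raw UMI counts for each gene in each barcode. Barcodes were kept that had 200 to 5000 genes, a mitochondrial share of up to 10% and no more than 28597 UMIs (the 93rd percentile of all barcodes), and no doublet caller was run, so doublets were limited only by the upper bounds on genes and UMIs. Cells were clustered with Seurat 5.3.0 in R 4.3.3 (2000 variable genes, 37 components, resolution 0.18), and vascular cells again after integration by reciprocal PCA (20 components, resolution 0.4). The 9 genes and their pathway genes were kept out of clustering and naming. The naming rule was set after clusters were seen, and the members and lists were chosen with earlier results of these data known. Counts were summed per library and class and compared as CPM with exact intervals (Python 3.11.15, scipy 1.17.1). The method was tested on simulated Poisson counts, the model that the intervals assume. These held no differences between cells or mice, so the intervals were not tested against such differences. Genes named are the 9 members, called genes of the pathway list, of which 36 symbols were found, and the 3 genes most like each member, of which 1 is not reported here. Alternatives changed the cell filters, clustering, scaling, depth, count minimum and fold. Gene positions are from GENCODE (GRCm38, 9 of 9 matched by identifier) and promoters from RefSeq (GRCm38.p6). Depth was 40655452 to 45218176 UMIs per library.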

Additional observations from a re-analysis of the deposited data

Results flagged for a closer look

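A pair of results stood out because the direction after ventilation was opposite in young and aged mice, with both counting intervals leaving out 1. *Ackr3* in arterial-like cells had a ventilated over nonventilated ratio of 6.985 in aged mice (5 and 21 UMIs) and 0.245 in young mice (24 and 6 UMIs). *Edn1* in venous-like cells had a ratio of 0.5807 in aged mice (102 and 76 UMIs) and 1.83 in young mice (67 and 98 UMIs). The share of venous-like cells with an *Edn1* UMI showed no opposite direction, at 45.0% and 20.6% in aged and 35.1% and 31.9% in young mice. The cell with most gave 23 and 20 of the aged and 10 and 17 of the young UMIs. With 1 library per group the difference between the ages was not tested for either gene.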

How the results depend on the processing

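No paired analysis was possible because each group is 1 pooled library and no replicate numbers are shared, and for the same reason no replicate could be left out. Of 38 calls, 10 held under all 16 alternatives: *Aplnr*, *Npr1* and *Npr3* in general capillary-like cells after ventilation at both ages, *Ednrb* in young aerocyte-like cells after ventilation, and, between ages, *Aplnr* (nonventilated) and *Npr3* (ventilated) in general capillary-like and *Ackr3* (nonventilated) in venous-like cells. The 1.5-fold limit and the absent filter on low counts only loosen the rule and could not lose a call. Alternatives confined to a single class left the calls of the other classes unchanged. After ventilation in young mice there were 13 calls, 4 with cells thinned to 2000 UMIs and 20 at 1.5-fold. In aged mice there were 12, 6 and 22. Between nonventilated ages there were 5 calls, 3 after thinning, 8 with no filter on low counts, 9 at 1.5-fold and 3 without the cell with most UMIs, an alternative chosen after seeing the data. Between ventilated ages there were 8 calls, 2 after thinning, 13 with no filter on low counts, 11 at 1.5-fold, 5 with the UMI limit taken over the barcodes left by the other filters and 4 with no UMI limit.

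Directions turned in 17 cases, given as log2 ratios with 1 UMI added. *Ackr3* in arterial-like cells reached 0.25 in the young ventilation comparison and -0.23 between ventilated ages with the UMI limit over the barcodes left, and -0.49 in the latter without integration; the cause was not tested. Leaving out cells with UMIs of another lineage kept only 2 to 5 smooth muscle-like cells per library and gave *Ednrb* 2.20 in young and 0.30 in aged mice and *Ece1* -0.28 in aged mice after ventilation. *Npr3* in aged ventilated lymphatic-like cells rests on 1 cell, and against aged nonventilated cells it turned to -2.02 with no UMI limit, -1.61 at a mitochondrial limit of 5%, -1.75 at a resolution of 0.8, -1.75 with the 9 genes allowed in the clustering, -1.87 with lineage cells left out and -1.15 without the cell with most UMIs. Against young ventilated cells it turned to -2.45, -1.66, -1.79 and -1.79 under the first 4 of these and -1.58 without that cell. Counts under about 20 UMIs in the arterial-like, lymphatic-like and smooth muscle-like classes limit what could be seen there.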

Other observations

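*Ednrb*, the ETB receptor, was also found outside the vessels. Myofibroblast-like cells measured 198, 44.6, 131 and 0 CPM in the order used above. These were few cells, 34, 32, 19 and 12 per library. For the 12 aged ventilated cells the absence of a UMI limits the share of cells with a UMI at this depth only to 25%. Classical monocyte-like cells, which were seen in the ventilated libraries, measured 85.4 CPM in young and 87.6 CPM in aged mice, with UMIs in 35.2% and 33.8% of cells against at most 2.94% of lymphoid cells.

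*Npr3*, the clearance receptor, had 10.9% of its 5367 UMIs in alveolar fibroblast-like cells, more than in arterial-like and venous-like cells together.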
